A study of Mus musculus with 4 samples.

Results

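The genes of glycolysis, of the fate of pyruvate and of the response to low oxygen were followed in Chd2 mutant and wild-type mouse embryonic stem cells. The 35 members were chosen by symbol for their known roles, with earlier results of these data known, and 34 of them were listed under their own symbol among the 23309 genes of the deposited expression table. Eno1 appeared only in a row that joins it with its near-identical copy Gm5506, and that row is described beside the members and counted with none of them. RNA was sequenced from cells mutant in both alleles of Chd2 (Chd2 mut/mut, 2 libraries) and from wild-type cells (2 libraries), and all 4 libraries came from cells of the 129/Ola strain at passages 10 to 20. Chd2 encodes a chromatin remodeler of the chromodomain helicase family. Both genotypes were grown on gelatin in medium with 10% fetal bovine serum, 1000 U/ml leukemia inhibitory factor and added sodium pyruvate, and the labels give no oxygen level. The labels do not say how the alleles were made, whether each genotype is 1 clone, or whether the numbered lots of libraries were separate cultures.

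Glycolysis converts glucose to pyruvate in the cytosol. Pyruvate is then either reduced to lactate and exported, or oxidised in mitochondria by the pyruvate dehydrogenase complex, which pyruvate dehydrogenase kinases switch off. Hypoxia-inducible factor (HIF) raises the transcription of many of these genes: its alpha subunit is hydroxylated by oxygen-dependent prolyl hydroxylases, bound by the VHL ubiquitin ligase and degraded while oxygen is present. The alpha subunit is thus regulated mainly as a protein. Pluripotent stem cells are known for a high rate of glycolysis even in air.

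The values are FPKM, sequenced fragments per kilobase of transcript at a common library size, and the authors made 1 such value per gene over the libraries of each genotype. They have no replicate error, and the depth of the libraries is unknown, so each statement of significance is that of the authors' deposited table, which marks each gene as called (q-value under 0.05) or not. Differences on a log2 scale are log2(FPKM + 1) of the mutant minus that of wild type, and folds are plain ratios of FPKM. Chd2 itself was at 5.69 FPKM in mutant cells and 10.2 FPKM in wild-type cells, and it was called lower with a q-value of 0.0103 in the authors' deposited table. All 10 markers of pluripotent cells were above 1 FPKM in both genotypes, with Pou5f1 at 1071 FPKM in mutant cells and 1032 FPKM in wild-type cells. Of these 10 markers 8 had a change above 0, as did 49.6% of all genes that averaged at least 1 FPKM. The median change of the 10 was 0.15 on the log2 scale. The largest were those of Nanog, at 150.1 FPKM in mutant cells and 114 FPKM in wild-type cells, and Sox2, at 222 FPKM in mutant cells and 178 FPKM in wild-type cells. The markers below 0 were Utf1, at 615 FPKM in mutant cells and 694 FPKM in wild-type cells, and Tdgf1, at 212 FPKM in mutant cells and 216 FPKM in wild-type cells. Of 10 fibroblast markers 3 were listed at 0 in both genotypes, and the list summed to 12.4 FPKM in mutant cells and 16.0 FPKM in wild-type cells, most of it Thy1. Primitive endoderm and trophoblast markers summed to 42.8 FPKM in mutant cells and 39.2 FPKM in wild-type cells, mostly the keratins Krt8 and Krt18. Only these keratins were higher in mutant cells. Tfap2c was at 8.07 FPKM in mutant cells and 8.08 FPKM in wild-type cells. The rest of the list, among them Gata4, Gata6, Sox17 and Cdx2, was lower in mutant cells and under 1 FPKM in both genotypes. None of these markers was called, and what part such differences have in the results below was not tested.

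The genotypes had nearly the same profile of glycolytic and hypoxia-response RNAs. None of the 34 members was called in either direction in the authors' deposited table, where 0.718% of 11276 genes tested (q-value under 1) were called, 0.257% higher and 0.461% lower in the mutant. With 32 members under a q-value of 1, a count of 0 is near that background and is not a result about the members. The table gives no unadjusted p-values, so no count at such a threshold can be given. The q-value was at least 0.99 and under 1 for 20 members, and the share of all genes tested in this range was not counted. Ldhb, which encodes the H subunit of lactate dehydrogenase, was the 1 member with a q-value under 0.5. Genes that averaged at least 1 FPKM over the genotypes were kept for the description of changes, and 31 members did. Their median change was -0.01 on the log2 scale, against -0.0012 over all 10766 genes kept, and 14 lay above 0 and 17 below. The share above 0 was 45.2% of the members kept and 49.6% of all genes kept. The absolute change had a median of 0.10 for the members and likewise 0.10 for all genes kept. No member differed by 1.5-fold, a size reached by 1.76% of genes on the higher and 1.99% on the lower side. A fold of 1.2, chosen after the values were seen, was reached by 2 members kept on the higher side (Ldhb and Pfkl) and 2 on the lower side (Pfkfb3 and Pdk2), where 9.74% and 8.43% of all genes kept lay past it. In bulk RNA, fewer cells that express a gene and less RNA per cell cannot be told apart.

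**Figure D1:**
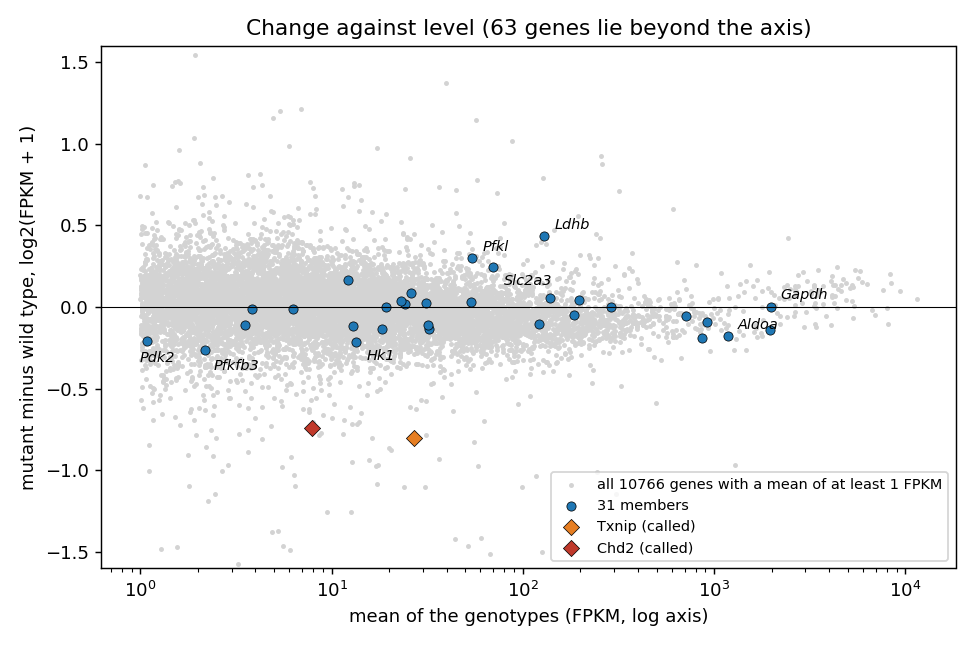
Change of each gene (mutant minus wild type, log2(FPKM + 1), vertical axis) against its mean FPKM (horizontal log axis); grey points are all 10766 genes kept, blue points the 31 members kept, diamonds the called genes Chd2 and Txnip. The members lie between -0.26 and 0.44, inside the cloud of all genes, with Ldhb the highest, while Txnip lies at -0.80.

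HIF binds a short core motif, ACGTG or GCGTG, and this core was common in the members' promoters. Many members are genes that HIF is known to raise, so a high share was likely from the choice of the list. A promoter of 250 bases before to 50 bases after an annotated start was found in RefSeq (GRCm38.p6, a later build than the mm9 of the authors' processing) for 33 of the 35 members, and for 11 of these at several starts. The core was present on either strand in at least 1 promoter of 30 of the 33 members (90.9%), against 46.7% of all 27025 genes of the promoter table. For the expressed genes kept the share was 69.6%, between these shares. A promoter was found for 79.4% of them, under the 80% required here for such a comparison, which makes it void as a check. The sets were not matched for expression or for base composition, and both forms of the core hold the pair CG. What part these have in the higher share of the members was not tested. The 3 members without the core were Gpi1, Tpi1 and Eno2. The E-box CACGTG, which holds ACGTG on both strands, was present in 21.2% of members, 8.09% of all genes and 12.6% of the expressed genes matched. Genes with several starts have more chances to hold a motif, and counted per promoter the core was present in 79.2% of the members' 48 promoters and 43.8% of all 32851. These are matches of letters and not sites of binding. Both members of the lactate dehydrogenase pair are shown because Ldhb had the largest difference among the members kept. Hk2, Pgk1 and Pdk1 stand for steps of glucose and pyruvate use, and Bnip3 for the hypoxia targets. Each line gives the 250 bases before the start, 5′ to 3′ on the gene's strand, from RefSeq (GRCm38.p6), with ACGTG and GCGTG in capitals on either strand, so that the reverse strand reads CACGT or CACGC. Of the annotated starts of Ldha and Pdk1, the one with most matches is shown.

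Ldhb (chr6:142507958-142508207, - strand): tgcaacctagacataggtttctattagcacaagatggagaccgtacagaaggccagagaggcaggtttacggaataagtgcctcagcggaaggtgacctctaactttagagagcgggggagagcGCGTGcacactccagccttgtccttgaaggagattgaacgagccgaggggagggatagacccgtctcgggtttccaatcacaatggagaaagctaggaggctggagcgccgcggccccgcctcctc

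Ldha (chr7:46845554-46845803, + strand): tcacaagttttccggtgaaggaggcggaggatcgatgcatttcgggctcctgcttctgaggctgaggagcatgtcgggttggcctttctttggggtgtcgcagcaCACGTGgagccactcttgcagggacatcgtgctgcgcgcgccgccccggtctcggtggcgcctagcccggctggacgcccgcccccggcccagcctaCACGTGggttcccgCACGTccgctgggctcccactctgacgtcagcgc

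Pgk1 (chrX:106186850-106187099, + strand): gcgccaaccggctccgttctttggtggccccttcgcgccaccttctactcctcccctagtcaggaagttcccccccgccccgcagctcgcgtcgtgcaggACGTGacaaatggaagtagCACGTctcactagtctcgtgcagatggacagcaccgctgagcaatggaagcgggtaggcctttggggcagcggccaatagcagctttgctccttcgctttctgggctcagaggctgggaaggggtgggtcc

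Hk2 (chr6:82774455-82774704, - strand): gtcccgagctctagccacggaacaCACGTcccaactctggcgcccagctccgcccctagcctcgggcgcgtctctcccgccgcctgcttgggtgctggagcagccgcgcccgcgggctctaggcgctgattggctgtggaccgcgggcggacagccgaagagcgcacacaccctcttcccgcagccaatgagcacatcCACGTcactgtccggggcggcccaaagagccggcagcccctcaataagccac

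Pdk1 (chr2:71872974-71873223, + strand): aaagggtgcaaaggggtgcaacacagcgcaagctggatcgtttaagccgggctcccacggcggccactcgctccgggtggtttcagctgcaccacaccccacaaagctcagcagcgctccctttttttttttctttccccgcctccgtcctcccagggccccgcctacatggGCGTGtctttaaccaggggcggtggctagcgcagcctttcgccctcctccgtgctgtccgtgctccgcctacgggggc

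Bnip3 (chr7:138909507-138909756, - strand): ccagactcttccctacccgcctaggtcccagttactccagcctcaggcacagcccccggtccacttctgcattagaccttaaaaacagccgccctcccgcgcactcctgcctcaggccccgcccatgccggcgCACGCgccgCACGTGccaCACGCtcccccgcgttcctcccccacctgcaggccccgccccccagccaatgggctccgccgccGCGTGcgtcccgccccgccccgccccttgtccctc

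The Ldha stretch held 5 matches to the core, of which 4 come from its 2 palindromic E-boxes, while the Ldhb stretch held 1. Bnip3 held 5, of which 2 come from its 1 palindromic E-box, 2 lie on either side of it and 1 lies nearer the start. Pgk1 and Hk2 held 2 each, and Pdk1 held 1. Within the 150 bases before the start the core was present in 84.8% of the members, 31.4% of all genes and, over the same incomplete match, 50.7% of the expressed genes kept.

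**Figure D2:**
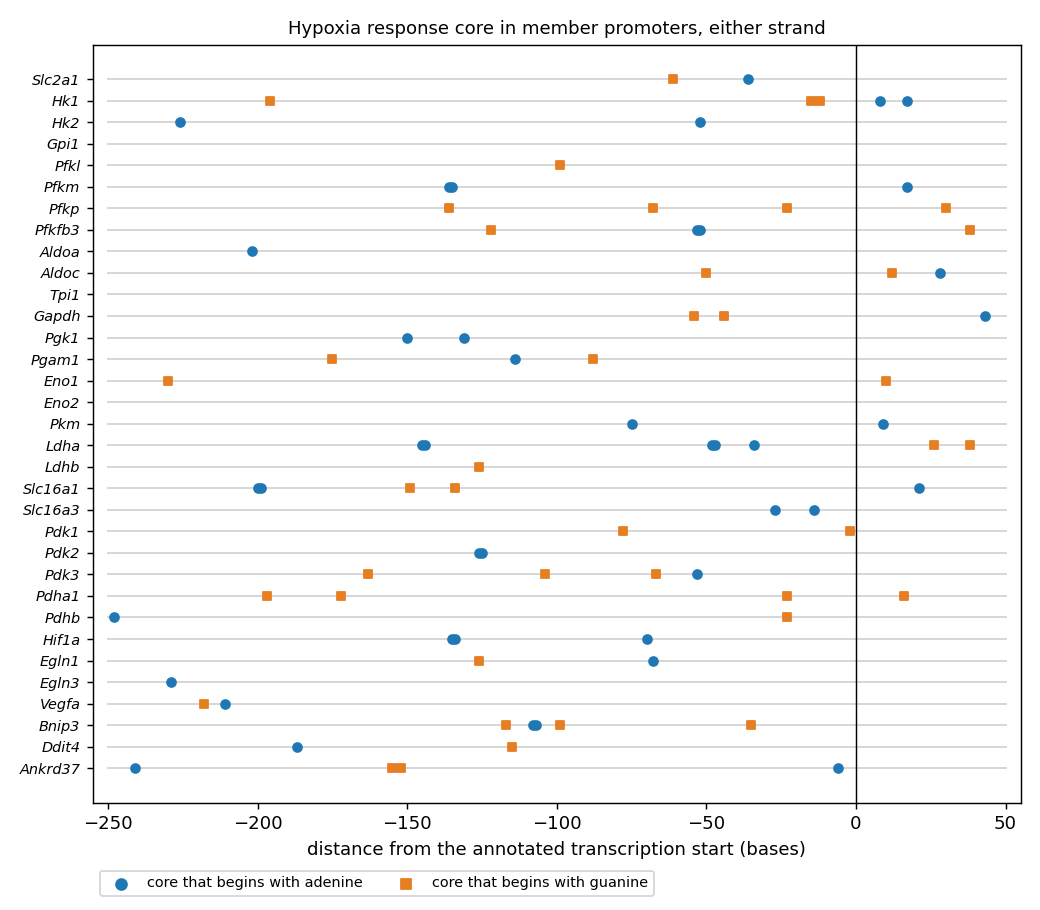
Position of each core match (horizontal axis, bases from the annotated start, marked by the vertical line) in 33 members, one line each, with the promoter that has most matches drawn for genes with several starts. Blue circles mark the core that begins with adenine and orange squares the core that begins with guanine, and Gpi1, Tpi1 and Eno2 have none.

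Glucose enters through facilitative transporters and is trapped by hexokinase. Slc2a1, which encodes the widely expressed transporter GLUT1, was at 118 FPKM in mutant cells and 126 FPKM in wild-type cells. Slc2a3, which encodes the high-affinity transporter GLUT3, was at 75.7 FPKM in mutant cells and 63.7 FPKM in wild-type cells, or 1.19-fold higher with a q-value of 0.732 in the authors' deposited table. Slc2a3 thus made up 37.6% of the summed FPKM of 11 transporters of the family in mutant cells and 32.3% in wild-type cells, while the sum was 201 FPKM in mutant cells and 197 FPKM in wild-type cells. Hk2, the inducible hexokinase, was at 54.3 FPKM in mutant cells and 53.1 FPKM in wild-type cells, and Hk1, the constitutive one, at 12.4 FPKM in mutant cells and 14.5 FPKM in wild-type cells. Hk2 was the main hexokinase in both genotypes, with 81.4% of the summed FPKM of Hk1, Hk2, Hk3 and Hkdc1 in mutant cells and 78.5% in wild-type cells.

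In the upper part of the pathway the phosphofructokinase genes Pfkl and Pfkfb3 differed most. Pfkl, the liver-type subunit of phosphofructokinase-1, the committing enzyme of glycolysis, was at 59.6 FPKM in mutant cells and 48.2 FPKM in wild-type cells. This is 1.24-fold higher, with a q-value of 0.534 in the authors' deposited table, and 8.87% of all genes at the level kept changed by at least as much. The muscle-type Pfkm was at 19.2 FPKM in both mutant and wild-type cells, and the platelet-type Pfkp at 30.7 FPKM in mutant cells and 33.9 FPKM in wild-type cells. Pfkl supplied 54.4% of the subunit RNA in mutant cells and 47.6% in wild-type cells. Pfkfb3 makes fructose 2,6-bisphosphate, the activator of that enzyme, and had the lowest change on this scale among the members kept (Pdk2 was lower by plain ratio), with 1.88 FPKM in mutant cells and 2.46 FPKM in wild-type cells and a q-value of 0.671 in the authors' deposited table. Gpi1, the isomerase of glucose 6-phosphate, was at 199 FPKM in mutant cells and 193 FPKM in wild-type cells. Aldoa, the main aldolase, was at 1113 FPKM in mutant cells and 1259.6 FPKM in wild-type cells, far above Aldoc at 6.23 FPKM in mutant cells and 6.28 FPKM in wild-type cells. Aldolase RNA was almost wholly Aldoa, at 99.4% in mutant cells and 99.5% in wild-type cells. Tpi1, which interconverts the triose phosphates, was at 288.2 FPKM in mutant cells and 287.9 FPKM in wild-type cells.

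The most abundant members, Gapdh and Pkm, belong to the lower, energy-yielding steps. Gapdh, the dehydrogenase often used to normalise RNA measurements, was at 1984 FPKM in mutant cells and 1980.1 FPKM in wild-type cells. Pkm, pyruvate kinase, was at 1864 FPKM in mutant cells and 2054 FPKM in wild-type cells, and its M1 and M2 splice forms cannot be told apart in a value per gene. Pgk1, which makes the first ATP of the lower part, was at 699.7 FPKM in mutant cells and 728 FPKM in wild-type cells. Pgam1, phosphoglycerate mutase, was at 807 FPKM in mutant cells and 922 FPKM in wild-type cells, a q-value of 0.919 in the authors' deposited table. The row that joins the enolase gene Eno1 with Gm5506 was at 954 FPKM in mutant cells and 936 FPKM in wild-type cells. Gm5506 also has a row of its own, at 370.4 FPKM in mutant cells and 382 FPKM in wild-type cells, so the split of reads between the 2 rows is uncertain. Eno2, the neuronal enolase, was under the level kept, at 0.422 FPKM in mutant cells and 0.291 FPKM in wild-type cells. Gapdh and several of its neighbours in the pathway also have processed pseudogenes in the mouse genome, and the sources used here do not say how reads of such copies were assigned.

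Set out step by step, with paralogs summed, the pathway had a steep profile that was shared by the genotypes. Among the enzymes that carry the carbon from glucose to lactate, which leaves out the regulatory Pfkfb and Pdk kinases, the 4 hexokinases named above had the lowest sum, 66.7 FPKM in mutant cells and 67.7 FPKM in wild-type cells, followed by phosphofructokinase-1 with 109.6 FPKM in mutant cells and 101 FPKM in wild-type cells. Gpi1 and Tpi1 came next. Phosphoglycerate kinases, phosphoglycerate mutases, lactate dehydrogenases, aldolases and enolases stood above them in this order in both genotypes. The enolase sum adds the row of Gm5506 to the joint row that also holds it, so the place of enolases is uncertain. The joint row alone was at 954 FPKM in mutant cells and 936 FPKM in wild-type cells. The lactate dehydrogenases summed to 1036 FPKM in mutant cells and 1053 FPKM in wild-type cells. Pyruvate kinase and Gapdh were at the top, pyruvate kinase below Gapdh in mutant cells and above it in wild-type cells. With 1 value per genotype it cannot be said which neighbours in this order differ beyond the spread of the libraries. The 34 members together took 1.10% of the summed FPKM in mutant cells and 1.16% in wild-type cells.

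**Figure D3:**
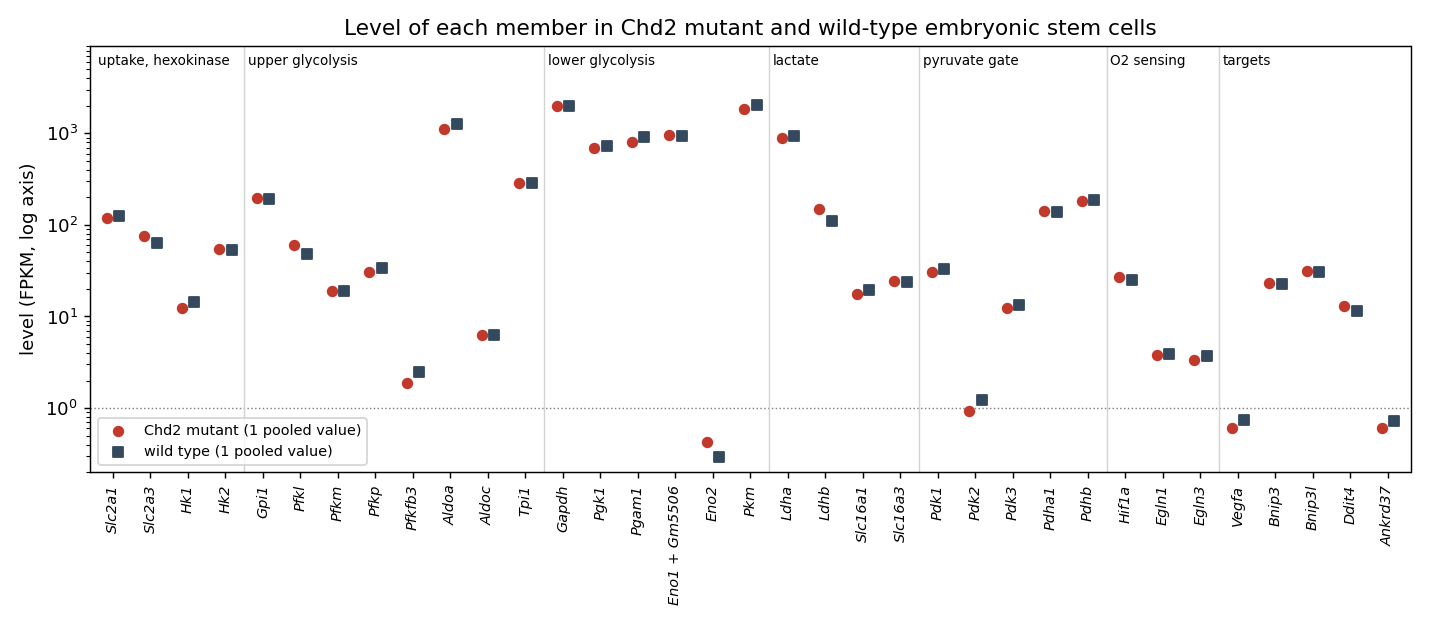
Level of each member and of the joint row of Eno1 and Gm5506 (vertical log axis, FPKM) in the order of the pathway, with Chd2 mutant cells as red circles left of wild-type cells as dark squares; each point is 1 value over 2 libraries, without error bars. Levels span from under 1 FPKM (dotted line) for Eno2, Vegfa and Ankrd37 to Gapdh, at 1984 FPKM in mutant cells and 1980.1 FPKM in wild-type cells, and Pkm beside it, and the points of a gene lie close together.

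Lactate dehydrogenase gave the largest difference among the members at the level kept. Ldhb was at 148 FPKM in mutant cells and 109 FPKM in wild-type cells, 1.36-fold higher and 0.44 on the log2 scale. The authors' deposited table gives it a q-value of 0.159 and no call, and 145 genes had a q-value at or under this one. A change at least as large was seen in 3.64% of all genes kept and in 2.76% of the 1015 genes that averaged at least 100 FPKM. Ldha, which encodes the M subunit that favours the reduction of pyruvate, was at 887 FPKM in mutant cells and 943 FPKM in wild-type cells. The level of Ldha was therefore 5.99 times that of Ldhb in mutant cells and 8.64 times in wild-type cells, and Ldhb made up 14.3% of lactate dehydrogenase RNA in mutant cells and 10.4% in wild-type cells. The sum of the family was 1036 FPKM in mutant cells and 1053 FPKM in wild-type cells. Of the proton-coupled lactate carriers, Slc16a3 (MCT4, the exporter of glycolytic cells) was at 24.4 FPKM in mutant cells and 24.1 FPKM in wild-type cells, and Slc16a1 (MCT1) at 17.5 FPKM in mutant cells and 19.3 FPKM in wild-type cells.

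**Figure D4:**
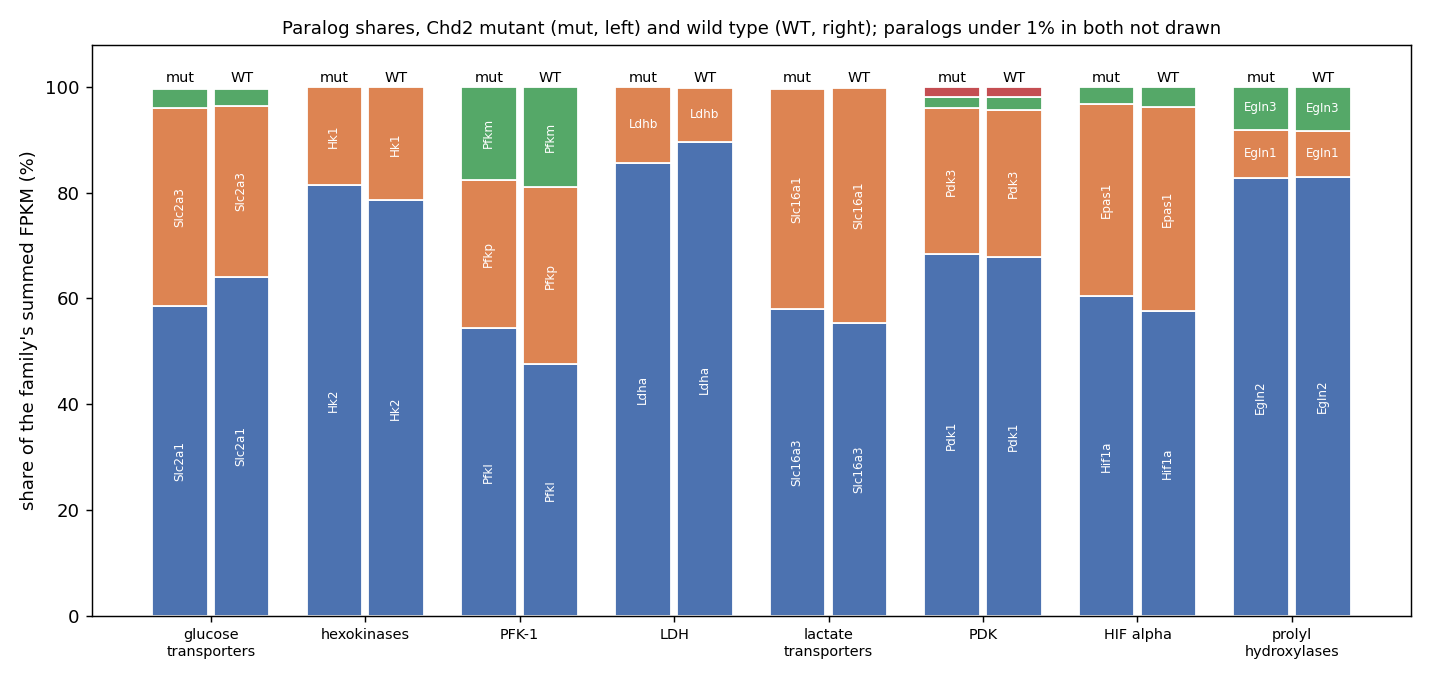
Share of each paralog in the summed FPKM of its family (vertical axis, percent), with the left bar of each pair for Chd2 mutant cells and the right bar for wild-type cells; paralogs under 1% in both are not drawn. Ldhb takes 14.3% in mutant cells and 10.4% in wild-type cells, Pfkl 54.4% in mutant cells and 47.6% in wild-type cells, and the leading paralog of each family drawn is the same in the genotypes.

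At the entry of pyruvate into mitochondria, the kinases were led by Pdk1, a HIF target in many cell types. Pdk1 was at 30.6 FPKM in mutant cells and 33.1 FPKM in wild-type cells, and Pdk3 at 12.4 FPKM in mutant cells and 13.5 FPKM in wild-type cells. Pdk2 was near the level kept, at 0.930 FPKM in mutant cells and 1.23 FPKM in wild-type cells. Their shares differed little, Pdk1 holding 68.4% of the kinase RNA in mutant cells and 67.9% in wild-type cells. Pdha1, the catalytic alpha subunit of pyruvate dehydrogenase that these kinases phosphorylate, was at 142 FPKM in mutant cells and 137 FPKM in wild-type cells. Its partner Pdhb was at 182 FPKM in mutant cells and 188 FPKM in wild-type cells.

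Of the oxygen-sensing members, Hif1a, which encodes the HIF-1 alpha subunit, was at 26.7 FPKM in mutant cells and 25.1 FPKM in wild-type cells. It made up 60.4% of the RNA of the 3 alpha subunits in mutant cells and 57.6% in wild-type cells, with nearly all of the rest from Epas1 (HIF-2 alpha). Egln1, the main prolyl hydroxylase of HIF in most cells (PHD2), was at 3.81 FPKM in mutant cells and 3.85 FPKM in wild-type cells. Egln3 (PHD3), itself a HIF target, was at 3.35 FPKM in mutant cells and 3.70 FPKM in wild-type cells. Egln2, which is no member, held most of the hydroxylase RNA, 82.7% in mutant cells and 82.9% in wild-type cells.

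Among the hypoxia targets, those above the level kept were the mitophagy receptors and Ddit4. Bnip3 was at 23.3 FPKM in mutant cells and 22.6 FPKM in wild-type cells, and Bnip3l at 31.5 FPKM in mutant cells and 31.0 FPKM in wild-type cells. Ddit4, which encodes REDD1, an inhibitor of mTORC1, was at 12.9 FPKM in mutant cells and 11.4 FPKM in wild-type cells, with a q-value of 0.970 in the authors' deposited table. Vegfa, the angiogenic factor, was at 0.605 FPKM in mutant cells and 0.741 FPKM in wild-type cells. Ankrd37, an ankyrin-repeat gene induced by HIF-1, was at 0.608 FPKM in mutant cells and 0.714 FPKM in wild-type cells. Both of these targets lay under 1 FPKM, where a value of this kind is poorly estimated.

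Further genes of the same pathways, taken from lists that also held alternative symbols, gave 1 call. Of 162 symbols 156 were listed, 110 had a q-value under 1, and Txnip was the 1 called, a share near the 0.718% of all genes tested. Txnip encodes a thioredoxin-binding protein that restrains glucose uptake, and its transcription is known to follow glucose and glycolytic intermediates. It fell to 19.3 FPKM in mutant cells, against 34.3 FPKM in wild-type cells, a 1.78-fold difference with a q-value of 0.0103 in the authors' deposited table. The 107 of them that were kept had a median change of -0.03, with 46 above 0 and 61 below.

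The other genes at either end of these lists were not called. Among further glycolytic genes, Pfkfb2 was at 1.51 FPKM in mutant cells and 1.01 FPKM in wild-type cells, and Pfkfb1 at 3.21 FPKM in mutant cells and 4.18 FPKM in wild-type cells. Both encode relatives of Pfkfb3. Bpgm, the bisphosphoglycerate mutase, was at 5.02 FPKM in mutant cells and 6.19 FPKM in wild-type cells, and 9630033F20Rik at 26.7 FPKM in mutant cells and 24.3 FPKM in wild-type cells. Of the transport genes, the transporter gene Slc2a8 was at 7.10 FPKM in mutant cells and 6.24 FPKM in wild-type cells. Emb, which encodes a chaperone of the lactate carriers, was at 37.7 FPKM in mutant cells and 35.1 FPKM in wild-type cells, and Bsg, another such chaperone, at 328 FPKM in mutant cells and 312 FPKM in wild-type cells. Of 18 further genes kept around pyruvate and its mitochondrial carriers, 11 lay below 0. Their ends were the mitochondrial aspartate aminotransferase Got2, at 116 FPKM in mutant cells and 147 FPKM in wild-type cells, the pyruvate carrier subunit Mpc2, at 15.1 FPKM in mutant cells and 18.2 FPKM in wild-type cells, malic enzyme Me1, at 10.3 FPKM in mutant cells and 9.05 FPKM in wild-type cells, and pyruvate carboxylase Pcx, at 11.6 FPKM in mutant cells and 10.1 FPKM in wild-type cells.

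Around HIF itself the changes were small on the scale of log2(FPKM + 1), which shrinks differences near 1 FPKM. The 17 further oxygen-sensing genes kept had a median change of -0.04 and lay between -0.18 (Tceb1, elongin C of the VHL complex, 124 FPKM in mutant cells and 141 FPKM in wild-type cells) and 0.17 (Siah2, a ubiquitin ligase, 1.19 FPKM in mutant cells and 0.944 FPKM in wild-type cells). Cul2, the cullin of the same complex, was at 26.9 FPKM in mutant cells and 30.2 FPKM in wild-type cells, and Arntl, a relative of the HIF partner Arnt, at 5.74 FPKM in mutant cells and 5.12 FPKM in wild-type cells. By plain ratio Siah2, near 1 FPKM, was 1.26-fold higher in mutant cells, with a q-value of 0.970 in the authors' deposited table. The 35 further hypoxia targets kept had a median of -0.03, with 14 above 0 and 21 below. At their lower end Hilpda, a lipid droplet protein, was at 9.40 FPKM in mutant cells and 12.4 FPKM in wild-type cells. Hmox1, heme oxygenase, was at 47.8 FPKM in mutant cells and 61.5 FPKM in wild-type cells. At their upper end stood the histone demethylase Kdm4b, at 5.74 FPKM in mutant cells and 4.82 FPKM in wild-type cells, and Zfp395, at 4.67 FPKM in mutant cells and 4.06 FPKM in wild-type cells.

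The branches that leave glycolysis, among them the pentose phosphate pathway and glycogen metabolism, had a median change of -0.02 over 21 genes kept, with 10 above 0 and 11 below. Pygm, glycogen phosphorylase of muscle, was at 0.952 FPKM in mutant cells and 1.68 FPKM in wild-type cells, and Pgm1, a phosphoglucomutase, at 8.78 FPKM in mutant cells and 11.9 FPKM in wild-type cells. Gaa, the lysosomal glucosidase, was at 13.8 FPKM in mutant cells and 11.6 FPKM in wild-type cells, and the brain form of glycogen phosphorylase, Pygb, at 6.06 FPKM in mutant cells and 5.58 FPKM in wild-type cells. None of these was called.

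**Figure D5:**
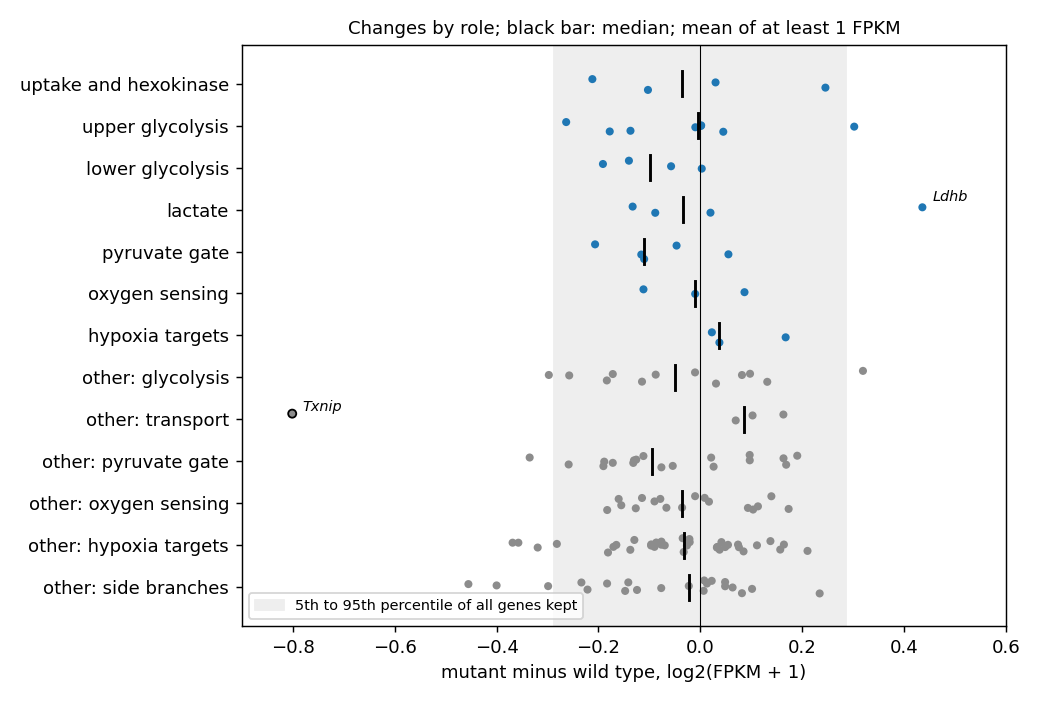
Change of each gene kept (horizontal axis, mutant minus wild type, log2(FPKM + 1)) by role, members in blue above the further pathway genes in grey, with a black bar at each median and the 5th to 95th percentile of all genes kept (-0.29 to 0.29) shaded. Ldhb, at 0.44, and Pfkl, at 0.30, are the 2 members outside the shading, and Txnip, outlined, is the 1 called gene.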

How the data were processed

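RNA of 4 libraries (2 per genotype, NEBNext Ultra kit, 1 ug of total RNA, per the labels) was processed with bcl2fastq 2.17.1.14, TopHat2 2.1.0 and Cufflinks on mm9, per the submitters' processing notes. The sources used here do not give the Cufflinks version, the annotation or the test behind the q-values. The authors deposited 1 FPKM value per gene and genotype, pooled over libraries, so the depth and the spread of libraries are unknown. Per the file headers, the table also holds the log2 of the fold change (mutant over wild type). It further holds a q-value with a yes or no call by the authors. For every member listed, the deposited log2 fold change equals the log2 of the plain ratio of FPKM within 0.001. No call of no had a q-value under 0.05.

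No test of its own was possible on 1 value per genotype. Changes are differences of log2(FPKM + 1) for genes that averaged at least 1 FPKM, computed with Python 3.11.15, pandas 2.3.3 and numpy 2.4.6, and figures drawn with matplotlib 3.10.9. The code for changes and for the motif search was run on simulated data with planted answers, which checks the code and not the results. Promoters and motifs came from RefSeq (GRCm38.p6), matched by symbol and, for the whole table, also by synonym. Named further genes are those called and the 2 largest and 2 smallest changes of each list. The members and lists were chosen with earlier results of these data known. Pseudocounts, filters and scalings were varied as given in the closing section.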

Additional observations from a re-analysis of the deposited data

How the results depend on the processing

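No paired analysis was possible because the deposited table holds 1 value per genotype and not the separate lots, and no library could be left out for the same reason. The scalings, pseudocounts, filters and the promoter window below were planned. Counting the joint row of Eno1 and Gm5506 as a member and the fold of 1.2 were chosen after seeing the data. The members' median change of -0.01 was 0.0010 with a mean of at least 5 FPKM (27 members), -0.028 without a filter (34 members), -0.015 with the summed FPKM made equal and -0.023 under quantile normalization, all close to 0. The number of members above 0 was 11 with the summed FPKM made equal and 14 or 15 in the other settings. Pfkm, Tpi1 and Gapdh changed sign with the summed FPKM made equal, and Gapdh and Pdhb did under quantile normalization, where Ldha came to 0. No other member kept changed sign in these settings, and the largest shift among the 31 was 0.193 on the log2 scale. The largest shift came without a pseudocount, where Pdk2 (-0.40) lay below Pfkfb3 (-0.39). Eno2, under the level kept, was at 0.14 with a pseudocount of 1 and 0.54 without one, above Ldhb at 0.44. Ldhb lay between 0.43 (summed FPKM made equal) and 0.49 (quantile normalization). The count of 0 members called was 0 at a mean of at least 1 FPKM and 0 at a fold of 1.5 without a call, and 4 at a fold of 1.2. Shares of paralogs cannot change when all values of a genotype are scaled by 1 factor, and the difference in the share of Ldhb, 3.92 percentage points, was the same. The share of members with the HIF core was 84.8% within 150 bases before the start. With depth unknown, small differences and those of genes near 1 FPKM cannot be told from error.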
